A study of Mus musculus with 6 samples.

Results

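The semaphorins, plexins and neuropilins form 1 ligand and receptor system, and it was followed here in bEnd.3 cells, an immortalised endothelial line from mouse brain. The genes were taken by symbol: protein-coding genes named Sema3 to Sema7 with a letter, plexins A to D, Nrp1 and Nrp2. This gave 31 genes of the 55335 identifiers measured, made up of 20 semaphorins, 9 plexins and 2 neuropilins. The family was chosen by the measured rises of Plxnd1 and Plxna2 in this same comparison, so the changes of those genes are given as a description, without a test. RNA was sequenced in 3 control libraries and 3 libraries of cells given mitochondria, all from wild-type cells of the same line. The mitochondria had been isolated from primary mouse astrocytes and were given in 100 µl of medium, the controls received medium alone, and RNA was taken at 24 h. The question the comparison addresses is how the RNA of these cells differs after astrocyte mitochondria are given. The endothelial label of the line is checked on markers below. Levels are FPKM, a fragment density relative to transcript length and sequencing depth. A log2 difference is the mean of log2(FPKM + 1) with mitochondria less that in controls, and for low genes it is smaller than the true change.

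Semaphorins are secreted or membrane-bound guidance cues, first studied in growing axons and also active in vessels. Plexins are their receptors and carry a GTPase-activating domain that acts on small GTPases of the Ras family, which loosens adhesion and reshapes the actin cytoskeleton. Most secreted class 3 semaphorins need a neuropilin to bind the ligand while a plexin carries the signal into the cell. Sema3e is an exception that binds Plxnd1, a plexin known for its role in endothelial cells, without a neuropilin. Sema3a acts chiefly through Nrp1 and Sema3f chiefly through Nrp2, and both neuropilins also bind forms of VEGF.

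The stretches upstream of Plxnd1 and Plxna2 are shown because their rises chose the family, and that of Plxnb2 because it had the highest level in the family. No RefSeq stretch was available for Plxna1, whose values were also higher with mitochondria. Each is the 250 bases before a RefSeq start site on GRCm38.p6, written 5′ to 3′ on the gene's strand, with capitals for the GC box GGGCGG or its reverse complement CCGCCC. The Plxnd1 window lies at chr6:115995006-115995255 on the minus strand, that of Plxna2 at chr1:194619579-194619828 on the plus strand, inside the GENCODE span of the gene and past its annotated start, and the Plxnb2 window at chr15:89180789-89181038 on the minus strand.
Plxnd1: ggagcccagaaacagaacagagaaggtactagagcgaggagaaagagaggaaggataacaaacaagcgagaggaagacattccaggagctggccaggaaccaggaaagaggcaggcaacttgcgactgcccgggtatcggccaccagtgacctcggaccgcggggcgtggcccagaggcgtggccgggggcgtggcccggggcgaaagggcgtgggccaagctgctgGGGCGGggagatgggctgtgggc
Plxna2: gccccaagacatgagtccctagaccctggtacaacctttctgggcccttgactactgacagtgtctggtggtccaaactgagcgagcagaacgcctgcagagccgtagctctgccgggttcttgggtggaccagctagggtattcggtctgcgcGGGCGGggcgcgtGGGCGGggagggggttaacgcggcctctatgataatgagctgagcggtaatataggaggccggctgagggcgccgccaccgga
Plxnb2: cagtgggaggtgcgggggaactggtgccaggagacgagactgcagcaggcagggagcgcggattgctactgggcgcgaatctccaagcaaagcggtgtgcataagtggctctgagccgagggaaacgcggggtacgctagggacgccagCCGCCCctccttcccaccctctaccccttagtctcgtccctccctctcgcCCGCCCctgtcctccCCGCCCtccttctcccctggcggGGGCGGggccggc
The 3 windows hold 1, 2 and 4 GC boxes and are 64.8%, 62.8% and 69.2% G or C, in the order shown. Of the 31 genes, 26 had a window in the RefSeq table, and 21 of these 26 held a GC box on either strand in at least 1 of their windows, against 35.4% of all 27025 genes in the table. None of the 26 held the TATA box TATAAA (14.3% of all genes), and 6 held CCAAT (37.5%). The E-box CACGTG was in 2 of them (6.86% of all genes), the AP-1 site TGANTCA in 3 (7.82%) and the CRE, TGACGTCA, in 0 (1.77%). Taking the highest window of each of the 26, the median was 65.6% G or C, against 52.4% over all 32851 windows. The part of base composition in these motif counts was not tested. Searched after the sequence was seen, the word GGCGTGG on either strand occurs 4 times upstream of Plxnd1, with 0 copies overlapping its GC box. At least as many copies are found in 14 of all 32851 windows (0.0426%), and the Plxna2 and Plxnb2 windows hold 0. Because the word was picked from the Plxnd1 window, this share is a description and not a test. The word was present in 4 of the 26 genes and in 8.6% of all genes.

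In these cells 21 of the 31 genes reached 1 FPKM in at least 3 of the 6 libraries and were tested, and the receptors stood at the top. Plxnb2, a receptor for class 4 semaphorins, had the highest level at 94.0 ± 6.69 FPKM in controls (SD, n = 3), which is above 96.9% of tested genes when all libraries are averaged. Nrp2 followed at 43.6 ± 5.70 FPKM, then Plxna1 at 29.3 ± 3.29 and Plxnd1 at 13.1 ± 1.13 FPKM. The highest ligand was Sema3a at 11.1 ± 1.16 FPKM, and its control values overlapped those of Plxnd1 and of Sema3c. With mitochondria the first 5 places were held by the same genes in the same order. Of the 10 genes not tested, 9 stayed under 1 FPKM in every library. They were Plxna4, Plxnb3, Plxnc1, Sema4a, Sema4d, Sema4f, Sema5a, Sema5b and Sema7a. Sema6c, the tenth, passed 1 FPKM in control replicate 3 alone, while Sema3e, the lowest gene tested, averaged 1.12 FPKM in controls and 1.09 FPKM with mitochondria.

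**Figure D1:**
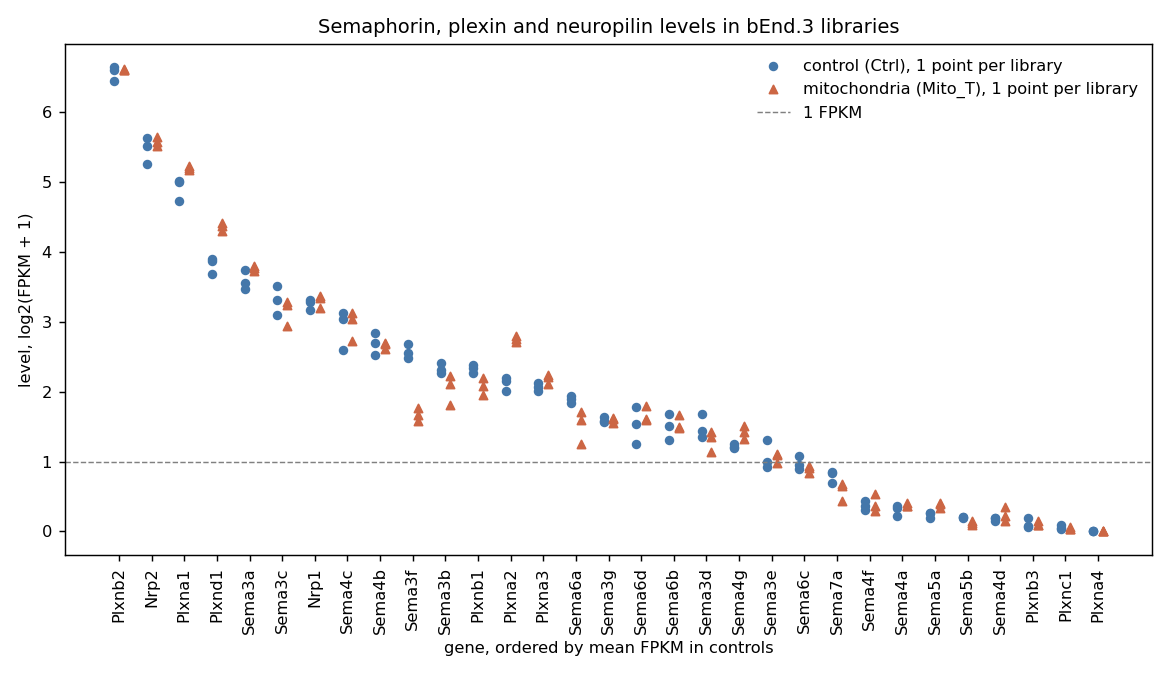
Level of each of the 31 genes as log2(FPKM + 1), with 1 point per library (circles, 3 controls; triangles, 3 libraries with mitochondria) and genes ordered by their mean FPKM in controls. Plxnb2, Nrp2, Plxna1 and Plxnd1 lie above the semaphorins in mean level, and the dashed line marks 1 FPKM.

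Among the receptors, Plxnd1 and Plxna2 were higher with mitochondria in every library. Plxnd1 (ENSMUSG00000030123, chromosome 6, 115954811 to 115995005, GRCm38) stood at 13.9, 13.6 and 11.8 FPKM in control replicates 1 to 3 and at 20.3, 19.7 and 18.6 FPKM in mitochondria replicates 1 to 3. The lowest library with mitochondria was thus above the highest control. Its log2 difference was 0.54 (SE 0.07), and the ratio of the means was 1.49. Plxna2 (ENSMUSG00000026640, chromosome 1, 194618218 to 194816869), a receptor for Sema6a and Sema6b that also pairs with neuropilins, was at 3.01, 3.46 and 3.56 FPKM in controls and at 5.71, 5.52 and 5.92 FPKM with mitochondria. The groups did not overlap, and the ratio of the means was 1.71, with a log2 difference of 0.63 (SE 0.07). Plxna2 went from below Plxnb1 to above it in the order of levels.

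The other plexins did not pass the threshold, an adjusted p under 0.05 in limma over all tested genes. Plxna1, the most abundant plexin A, was at 25.5, 31.1 and 31.3 FPKM in controls and 36.7, 35.8 and 35.0 FPKM with mitochondria (log2 difference 0.29, 95% interval 0.08 to 0.49, limma adjusted p = 0.203). Its groups did not overlap, and control replicate 1 was the lowest library. Plxna3, which mediates Sema3f signals together with Nrp2, was at 3.19 ± 0.160 and 3.54 ± 0.199 FPKM (limma adjusted p = 0.512). Plxnb1, the receptor of Sema4d, differed in the opposite direction, at 3.79, 4.23 and 4.05 FPKM in controls and 3.22, 3.56 and 2.85 FPKM with mitochondria (log2 difference −0.26, limma adjusted p = 0.239). For Plxnb2 the means were 94.0 ± 6.69 and 96.7 ± 0.565 FPKM, and the 95% interval of its log2 difference ran from −0.11 to 0.19. Plxnb3 and Plxnc1, the receptor of Sema7a, had at most 0.137 and 0.0655 FPKM in any library, and Plxna4 was listed at 0 in all 6.

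Both neuropilins were expressed and neither passed the threshold. Nrp1 was at 8.01, 8.97 and 8.69 FPKM in controls and 9.09, 9.38 and 8.17 FPKM with mitochondria (limma adjusted p = 0.825). Nrp2 was at 37.4, 44.9 and 48.6 FPKM in controls and 46.6, 44.8 and 49.1 FPKM with mitochondria (limma adjusted p = 0.687). In each case the groups overlapped, and 0 of the 2 had an unadjusted p under 0.05. Nrp2 made up 82.4% to 85.7% of the summed neuropilin FPKM in every library, so the balance between the neuropilins was nearly the same with and without mitochondria.

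**Figure D2:**
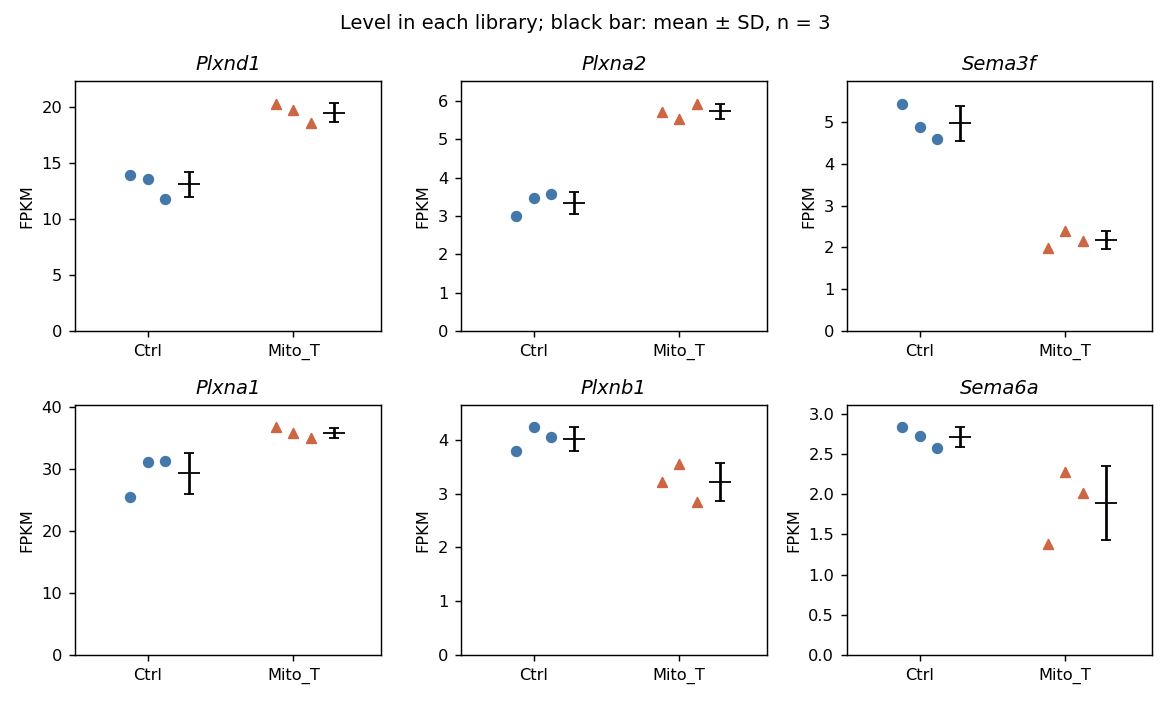
FPKM of 6 genes in each library, with controls (Ctrl) as circles, libraries with mitochondria (Mito_T) as triangles, and mean ± SD (n = 3) in black. In all 6 panels the groups do not overlap, with Plxnd1, Plxna2 and Plxna1 higher and Sema3f, Plxnb1 and Sema6a lower with mitochondria.

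All 7 class 3 semaphorins, the secreted ligands, were tested, and Sema3f was the one that fell. Sema3f (ENSMUSG00000034684, chromosome 9, 107681500 to 107710475) was at 5.43, 4.87 and 4.58 FPKM in control replicates 1 to 3. With mitochondria it was at 1.98, 2.39 and 2.16 FPKM, so its highest library there lay well under the lowest control. The ratio of the means was 0.439 and the log2 change −0.91 (SE 0.08, 95% interval −1.11 to −0.71, limma adjusted p = 0.0115). It was the 1 tested gene of the family whose means differed at least 2-fold. Leaving out control replicate 2 or mitochondria replicate 1 ended the call, with limma adjusted p-values of 0.0622 and 0.0619, while its log2 change stayed at −0.92 and −0.86. Without each of the other 4 libraries it was called, at limma adjusted p-values of 0.0215 to 0.0493. Taking all annotated exons as transcript, these FPKM and the implied depths correspond to at most 466 to 504 fragments of Sema3f in a control library and at most 269 to 279 in a library with mitochondria.

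The other class 3 ligands did not pass. Sema3a, which acts through Nrp1, was at 10.1, 12.4 and 10.8 FPKM in controls and 12.9, 12.2 and 12.6 FPKM with mitochondria (limma adjusted p = 0.400). Sema3b, the neighbour of Sema3f on chromosome 9 at a distance of 72.3 kb, was at 3.98, 4.30 and 3.81 FPKM in controls and 3.67, 3.30 and 2.5 FPKM with mitochondria. Its groups did not overlap, with a log2 difference of −0.28 (limma adjusted p = 0.338). Sema3c stood at 8.95 ± 1.39 and 7.95 ± 1.11 FPKM, Sema3d at 1.82 ± 0.336 and 1.47 ± 0.254 FPKM and Sema3g at 2.02 ± 0.0764 and 2.02 ± 0.0765 FPKM. Sema3e, the ligand of Plxnd1, was near the lower limit of testing, at 0.900, 0.983 and 1.48 FPKM in controls and 1.15, 1.14 and 0.978 FPKM with mitochondria (limma adjusted p = 0.977). The 95% interval of its log2 difference ran from −0.29 to 0.27, and its control values spread more, with a coefficient of variation of 27.9%, than those of Plxnd1 (8.66%).

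The membrane-bound semaphorins were low, and none of the 6 tested passed the threshold in limma, with 2 of them at an unadjusted p under 0.05. Sema4c and Sema4g are ligands of Plxnb2. Sema4c was at 6.69 ± 1.44 and 6.86 ± 1.13 FPKM with overlapping groups. Sema4g was at 1.28, 1.37 and 1.31 FPKM in controls and 1.5, 1.84 and 1.67 FPKM with mitochondria, without overlap (log2 difference 0.20, limma adjusted p = 0.316). Sema4b was at 5.46 ± 0.7 and 5.32 ± 0.197 FPKM. Of the transmembrane class 6, Sema6a, a ligand of Plxna2, was at 2.83, 2.72 and 2.58 FPKM in controls and 1.38, 2.27 and 2.01 FPKM with mitochondria. These groups did not overlap, and mitochondria replicate 1 was the lowest library (log2 difference −0.37, limma adjusted p = 0.246). Sema6b was at 1.85 ± 0.363 and 1.93 ± 0.213 FPKM, and Sema6d, a ligand of Plxna1, at 1.91 ± 0.534 and 2.19 ± 0.248 FPKM, both with overlapping groups.

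Among the untested ligands, Sema5a, Sema5b and Sema7a had groups that did not overlap, at levels too low for the test. Groups did not overlap in 21.0% of all tested genes. No such share was taken over genes too low for the test, so these are values only. Sema5a, a ligand of Plxnb3, was at 0.146 to 0.198 FPKM in controls and 0.255 to 0.326 FPKM with mitochondria. Sema5b was at 0.141 to 0.157 and at 0.0651 to 0.104 FPKM, and Sema7a, anchored in the membrane by a lipid, at 0.610 to 0.795 and at 0.349 to 0.600 FPKM. Sema4d, the ligand of Plxnb1, was at most 0.268 FPKM, Sema4a at most 0.321 and Sema4f at most 0.449 FPKM in any library.

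Leaving aside Plxnd1 and Plxna2, whose differences chose the family, limma called 1 of the 19 other tested genes, Sema3f, where 1.12% of the 12639 tested genes were called in either direction (0.467% higher and 0.649% lower). Among the 19, groups did not overlap in 2 genes that were higher and 4 that were lower, against 9.62% and 11.4% of all tested genes. An unadjusted p under 0.05 was found in 6 of the 19 and in 13.9% of all tested genes. These counts come from the comparison in which the family was chosen and are a description. Without any 1 library the log2 difference of Plxnd1 was 0.48 to 0.58 and that of Plxna2 0.57 to 0.67, in refits of the values that chose the family. The median log2 difference was −0.01 over the 13 tested semaphorins and −0.01 over all tested genes. That over the 6 tested plexins, 0.20, includes Plxnd1 and Plxna2, whose rises chose the family. The other tested plexins were at 0.29 (Plxna1), 0.12 (Plxna3), 0.04 (Plxnb2) and −0.26 (Plxnb1). Libraries with mitochondria were also sequenced more deeply, at 21800000 to 27200000 fragments implied by the FPKM against 17000000 to 21100000 in controls, and the part of depth in these differences was not tested.

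**Figure D3:**
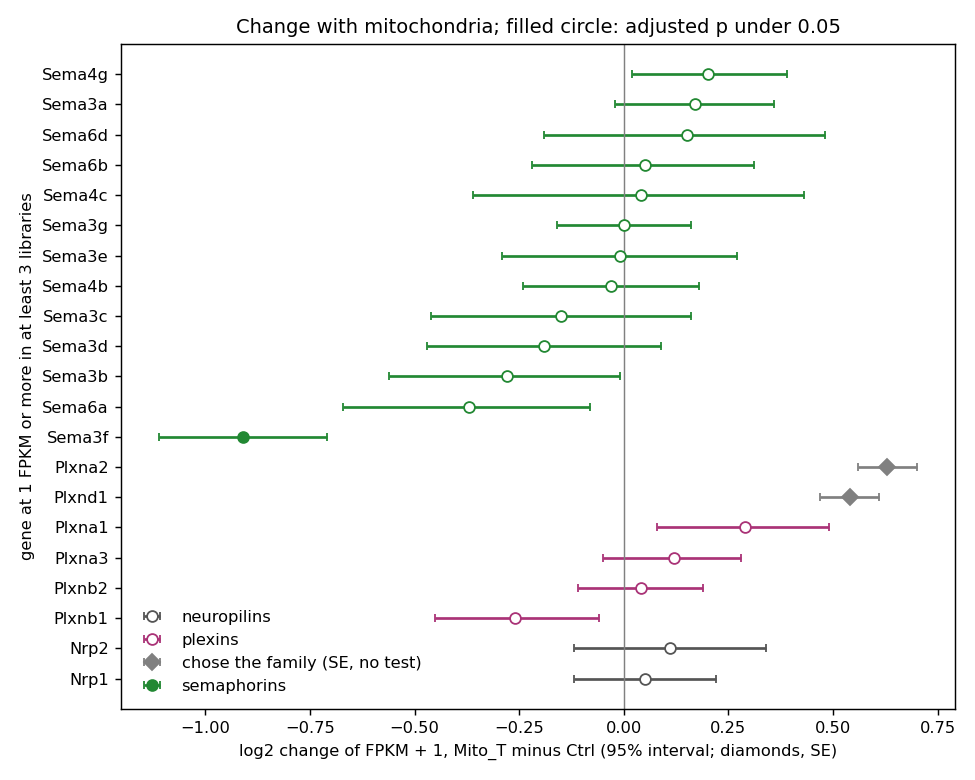
Log2 difference of FPKM + 1 (mitochondria minus control) for the 21 tested genes, with the 95% interval of the limma fit as bars and a filled circle for an adjusted p under 0.05. Plxna2 (0.63) and Plxnd1 (0.54), for which the family was chosen, are grey diamonds with bars of 1 SE and no test, and Sema3f (−0.91) is the 1 filled circle, to the left of 0.

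Shares of the summed FPKM within the family are given as a description. The larger shares of Plxnd1 and Plxna2 follow from the rises that chose the family. Plxnd1 made up 10.2%, 8.94% and 7.71% of the summed plexin FPKM in controls and 12.1%, 12% and 11.5% with mitochondria. Plxna2 held 2.27 ± 0.0526% and 3.47 ± 0.158% (SD, n = 3) and Plxna1 19.9 ± 0.937% and 21.8 ± 0.203%, while Plxnb2 held 63.9 ± 0.722% and 58.7 ± 0.616%. The share of Plxnb2 was lower although its own FPKM was not, because the summed plexin FPKM was 147 ± 9.86 in controls and 165 ± 2.43 with mitochondria. Among class 3 semaphorins, Sema3f made up 16.5%, 13.1% and 14.3% of the summed FPKM in controls and 6.22%, 7.62% and 7.67% with mitochondria. Sema3a, which held 30.8% to 33.7% in controls, held 39.0% to 44.7% with mitochondria. The ratio of Sema3f to Sema3a within a library, which does not depend on how libraries were scaled, was 0.537, 0.394 and 0.424 in controls and 0.153, 0.195 and 0.172 with mitochondria. The mean of Sema3a was itself higher with mitochondria. The ratio of Sema3f to Sema3b was 1.23 ± 0.117 in controls and 0.709 ± 0.163 with mitochondria, and that to Sema3c 0.561 ± 0.0793 and 0.277 ± 0.0444.

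**Figure D4:**
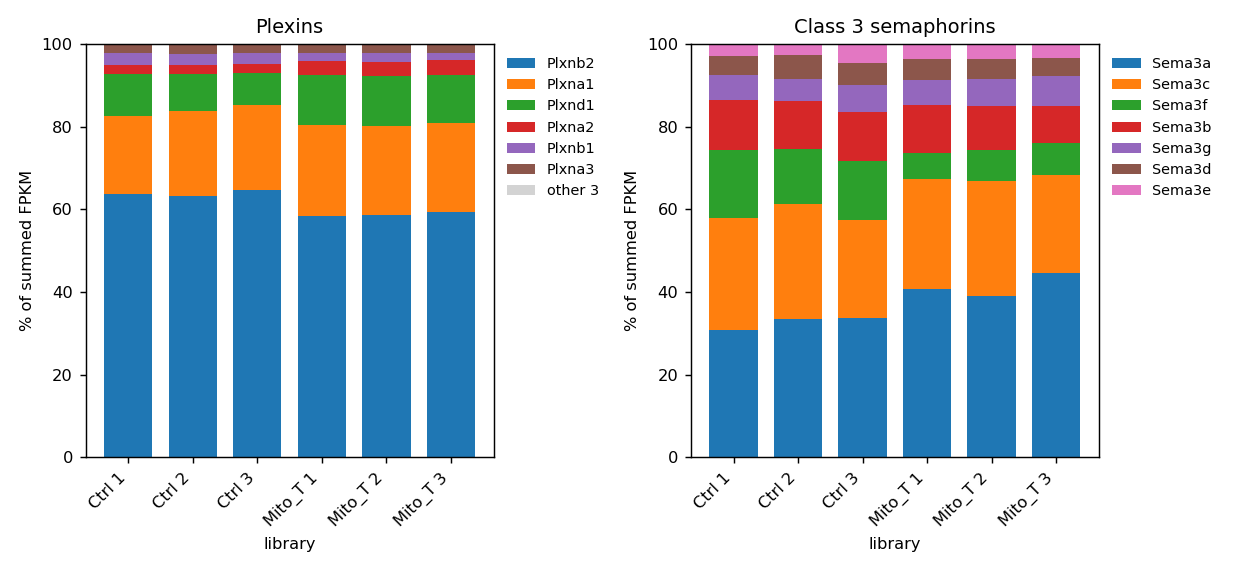
Share of the summed FPKM of 9 plexins (left) and 7 class 3 semaphorins (right) taken by each gene in each of the 6 libraries, in percent. The Plxnd1 band is 7.71% to 10.2% in controls and 11.5% to 12.1% with mitochondria, and the Sema3f band is 13.1% to 16.5% and 6.22% to 7.67%.

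Among genes that work with this system, 1 co-receptor fell and 1 effector rose. Of 64 co-receptors, processing enzymes, GTPases and effectors, 54 were tested, and limma called 1 higher and 1 lower, 3.7% of the list against 1.12% of all tested genes. An unadjusted p under 0.05 was found in 14 of the 54 (25.9%, against 13.9% of all tested genes), and the median log2 difference was 0.02. L1cam, an adhesion molecule that forms part of the Sema3a receptor with Nrp1, fell from 4.28, 5.10 and 4.86 FPKM to 2.54, 2.46 and 2.02 FPKM (log2 change −0.78, SE 0.09, limma adjusted p = 0.0211). Mical1, a monooxygenase that takes actin filaments apart downstream of plexin A, rose from 8.36, 8.20 and 8.30 FPKM to 11.1, 10.3 and 11.6 FPKM (log2 change 0.37, SE 0.06, limma adjusted p = 0.0486). With 1 library left out, the log2 change of L1cam was −0.84 to −0.71, and it was called without control replicate 1 (limma adjusted p 0.0375) but not in the other 5 fits (0.0514 to 0.0976). That of Mical1 was 0.33 to 0.41, and it was called in 0 of the 6 fits (limma adjusted p 0.0847 to 0.209). The 4 other neuropilin ligands tested and the 4 processing enzymes had 0 calls in limma, with 0 and 1 at an unadjusted p under 0.05.

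In the other guidance families, ephrins with their receptors, Slits with Robos and netrins with theirs, 19 of 41 genes were tested against 21 of 31 here. Limma called 2 of the 19, both ephrins and both lower (10.5%, where 0.649% of all tested genes were called lower). Efna3 fell from 5.68 ± 0.217 to 3.83 ± 0.263 FPKM (limma adjusted p = 0.0324) and Efnb1 from 18.7 ± 0.102 to 13.8 ± 0.937 FPKM (limma adjusted p = 0.0373). With any 1 library left out neither was called, at limma adjusted p-values of 0.0679 to 0.157 and 0.0727 to 0.157, while their log2 changes were −0.50 to −0.43 and −0.45 to −0.36. The difference between the families was not tested.

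The labelled cell type was checked on 14 endothelial markers, of which 8 were under 1 FPKM in every library. Cdh5 was at most 0.0685 FPKM, Pecam1 at most 0.268 and Cldn5 at most 0.129 FPKM, whereas Eng stood at 55.5 to 69.0 FPKM, so the endothelial label rests on some of its markers only. The summed endothelial markers were 136 to 144 FPKM in controls and 159 to 171 FPKM with mitochondria, with Cd34 as the largest difference and the VEGF receptors the other way. Cd34 rose from 60.3 ± 2.49 to 80.1 ± 1.84 FPKM (limma adjusted p = 0.0265), a call lost in each fit without 1 library (limma adjusted p 0.0505 to 0.149, log2 change 0.38 to 0.44). Flt1 was at 10 ± 0.932 and 7.75 ± 0.278 FPKM and Kdr at 3.94 ± 0.249 and 3.00 ± 0.262 FPKM, both without overlap and neither called (limma adjusted p = 0.114 and 0.143). Cd34 is also the 1 tested gene within 250 kb of Plxna2. Around Plxnd1 and Sema3f, 8 and 15 genes were tested in such a window and limma called 0 of either. Of 10 astrocyte markers, 5 were under 1 FPKM throughout, Aqp4 was listed at 0 and Gfap was at most 0.198 FPKM, with sums of 63.6 to 103 FPKM in controls and 79.5 to 84.1 FPKM with mitochondria. The sum follows Gja1, which was at 45.7, 11.7 and 46 FPKM in controls. The other astrocyte markers went both ways. Slc1a3 was at 0.105 ± 0.0547 FPKM in controls and 0.0522 ± 0.048 FPKM with mitochondria, and Fgfr3 at 0.427 ± 0.0987 and 0.301 ± 0.0823 FPKM. Glul was at 38.2 ± 1.27 and 36.4 ± 1.28 FPKM and S100b at 1 ± 0.349 and 0.944 ± 0.335 FPKM. All of these had lower means with overlapping groups, while some markers had higher means with mitochondria. Aldh1l1 was at 0.391 ± 0.0792 and 1.06 ± 0.091 FPKM and Slc1a2 at 0.0476 ± 0.0304 and 0.122 ± 0.0471 FPKM, both without overlap and too low for the test, and Aldoc at 14.1 ± 1.61 and 17.9 ± 2.28 FPKM (limma adjusted p = 0.268). The 9 fibroblast and mural markers summed to 211 to 233 FPKM in controls and 156 to 166 FPKM with mitochondria, and most of that difference was Col1a1, a fibrillar collagen. Col1a1 fell from 138 ± 2.45 to 83.9 ± 3.19 FPKM (log2 change −0.71, limma adjusted p = 0.00547), and it was called in each of the 6 fits without 1 library. Pdgfra, at 18.4 ± 0.756 and 22.6 ± 0.587 FPKM, and Acta2, at 1.64 ± 0.107 and 2.18 ± 0.215 FPKM, were higher without overlap and not called (limma adjusted p = 0.0702 and 0.204). Pdgfrb, at 59.8 ± 10.6 and 51.7 ± 4.89 FPKM, was near the level of Eng, and its groups overlapped (limma adjusted p = 0.563). Col1a2 was at 0.204 ± 0.109 and 0.0994 ± 0.0206 FPKM, too low for the test, and 5 of the 9 were under 1 FPKM in every library. The 5 microglial markers, nearly all Tmem119, summed to 224 to 272 and 182 to 208 FPKM, the 5 neuronal ones to 0.825 to 1.44 and 1.39 to 1.83 FPKM, and the 5 of the oligodendrocyte lineage to 0.103 to 0.185 and 0.173 to 0.194 FPKM. The part of these shifts in the changes of Plxnd1, Plxna2 and Sema3f was not tested, and fewer cells of a type and less RNA per cell cannot be told apart in bulk samples.

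Little sequence was shared with other genes for the genes that differed most, though the share of Plxna2 was the highest in the family. Of the 31-base words of Sema3f, 0.09% also occur in transcripts of another gene, and the shares for Plxnd1 and Plxna2 were 0.23% and 2.31%. The exons of these 3 genes overlap no other annotated gene. Among the other tested members, exons of Plxna1, Plxnb1 and Sema4c overlap a gene on the other strand over 10.7%, 2.7% and 7.3% of their length, so their values are less certain, as it is not given whether strand was used in counting.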

How the data were processed

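Each library came as a table from the authors, whose deposited values name no unit and were read here as FPKM. In genes with 1 transcript, the commonest low value multiplied by exonic length was taken as the worth of 1 fragment. It gave the implied depths, which are estimates. Reads were processed with STAR 2.5.3a, StringTie 1.3.1c and FastQC 0.11.5 on GRCm38 (mm10), per the submitters' processing notes. Settings, the annotation release and the use of strand are not given in the sources used here. Because only 16.5% to 18.4% of low values were within 0.02 of whole reads, no count model was used. Symbols came from GENCODE M21, which matched 55154 of 55335 identifiers. In R 4.3.3, limma 3.58.1 (trend and robust) compared the groups on log2(FPKM + 1), without covariates, over the 12639 genes that reached 1 FPKM in 3 or more libraries. All tests were two-sided. The p-values were adjusted by Benjamini and Hochberg across these genes, and the code was tested on simulated data. Alternatives changed the pseudocount, the filter, the scaling (TPM, quantile, and TMM without the precision weights that need counts) or the variance model, added the replicate number, or left out 1 library. All tested members and every called gene of the partner and guidance lists are named, with marker genes chosen after their values were seen, and members and lists were chosen with earlier results of these data known. No label says that replicates were separate cultures, so p-values speak only for the variation among these 6 libraries, possibly technical.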

Additional observations from a re-analysis of the deposited data

How the results depend on the processing

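Sema3f kept its direction in each of 13 other settings. Plxna2 and Plxnd1 did so in 13 and 14, which is a description only, as each setting refits values that chose the family. Sema3f was called in 10 of its 13, with log2 changes of −1.15 to −0.85. The number of called genes was 141 as reported, 13 with no filter on low values, 56 with the replicate block and 15 to 84 when 1 library was left out. Leaving aside Plxnd1 and Plxna2, which chose the family, no member other than Sema3f was called in any setting. Sema3f was not called with no filter (limma adjusted p = 0.0606) and was not tested at a mean of at least 5 FPKM. It was called with the replicate block and in 4 of the 6 fits without 1 library. Partner genes called numbered 2 as reported, 1 at a mean of at least 5 FPKM, as TPM and with plain empirical Bayes, 0 with no filter and with the replicate block (15 and 17 at an unadjusted p under 0.05 in limma), and 0 to 1 without 1 library. Called genes of the other guidance families numbered 2 as reported, 1 at a mean of at least 5 FPKM, 0 with no filter and with the block (9 and 6 at an unadjusted p under 0.05 in limma), and 0 in each fit without 1 library. Differences near 0, in genes not called, changed sign. Sema3g was −0.01 with quantile normalization and −0.0018 as TPM. Without 1 library the log2 differences ran from −0.02 to 0.08 for Plxnb2, −0.09 to 0.10 for Sema3e, −0.01 to 0.02 for Sema3g, −0.11 to 0.05 for Sema4b, −0.13 to 0.16 for Sema4c and −0.05 to 0.14 for Sema6b. Deviations from the group means correlated at 0.10, 0.05 and 0.30 between same-numbered libraries and at −0.2 to 0.12 between the others. The labels give only a number, and whether same-numbered libraries were handled together was not tested. Where a setting tests more or fewer genes or libraries, its own construction changes the count, and otherwise the cause was not tested. With 3 libraries a group and no counts, depth limits the genes near 1 FPKM, such as Sema3e and Sema6c.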
